A study of Mus musculus with 9 samples.

Results

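The core clock loop was measured here through 10 genes: the activators Arntl, Clock and Npas2, the period genes Per1, Per2 and Per3, the cryptochromes Cry1 and Cry2, and the nuclear receptors Nr1d1 and Nr1d2. A gene was included when the gene symbol given for an array probe equalled its name, which gave 1 probe for each of the 10 among the 15674 genes with a symbol on the array. The samples were jejunum of 9 male mice of the outbred stock OF1, aged 7 weeks and from generation 3 of a feeding trial, and 3 of them had received feed B, 3 feed K and 3 feed G. All mice had free access to feed and water, lived in equal light and dark phases and were starved for 3 h of the light phase before sampling. Each array held the RNA of 1 mouse from a 2 cm piece around the middle of the small intestine. The study examined a custom maize diet, and what the feed letters stand for is not given in the sources used here, so no feed was taken as a control. The study neither recorded the time of day of sampling nor randomized it between groups. Feed and time of day therefore cannot be told apart in any difference given here. No batch is named in the sources used here, where the array tables give 1 folder for all arrays and a separate barcode for each.

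The mammalian clock is a feedback loop of transcription. ARNTL (also called BMAL1) pairs with CLOCK, or with its relative NPAS2, and the pair binds E-boxes in the promoters of the period, cryptochrome and Nr1d genes. PER and CRY proteins return to the nucleus and inhibit the pair, while NR1D1 and NR1D2 (the REV-ERBs) repress Arntl through ROR elements, so that Arntl transcripts peak at a different time of day from those of the Nr1d and period genes. In the gut the loop runs in the epithelium and in the muscle layers, and feeding time is known to set its phase.

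The short motifs of this loop were looked up in RefSeq promoter windows of the GRCm38.p6 assembly, which run from 250 bases before to 50 bases after a transcription start. Of the 10 genes 9 had a window, with 13 windows in all. The stretches below show the motif matches in the members that the results turn on or that carry E-boxes or D-boxes, and capitals mark the motif. They are written 5′ to 3′ on the strand of the gene, and matches on both strands were counted. The E-box CACGTG lay in the windows of Cry1 and Per1, and 7.15% of all 32851 windows hold it. The E′-box, CACGTT or its complement, lay in Cry1, Cry2 and Nr1d1 and in 4.68% of all windows. A D-box, searched as TTATGTAA or TTATGCAA, was found in Per1 and 2 times in Per3, and 1.66% of windows hold one. D-boxes are bound by the activators DBP, TEF and HLF and by the repressor NFIL3. The half-site AGGTCA of ROR elements was matched in Arntl, Nr1d2, Clock and Per1 and in 16.3% of all windows. None of the matches overlapped a match of another motif. Npas2 had a window and none of these motifs in it. The Cry1 stretch holds an E′-box at position -79 and an E-box at position -60 from the start.
Cry1 (chr10:85185079-85185163, minus strand): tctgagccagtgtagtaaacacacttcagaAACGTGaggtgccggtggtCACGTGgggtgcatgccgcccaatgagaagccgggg
Cry2 (chr2:92434200-92434265, minus strand, E′-box): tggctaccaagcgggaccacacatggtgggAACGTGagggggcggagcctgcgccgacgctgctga
Per1 (chr11:69098753-69098847, plus strand, E-box and ROR half-site on the other strand): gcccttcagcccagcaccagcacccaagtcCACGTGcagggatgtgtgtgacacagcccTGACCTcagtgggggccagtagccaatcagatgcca
Per1 (chr11:69098895-69098948, plus strand, D-box): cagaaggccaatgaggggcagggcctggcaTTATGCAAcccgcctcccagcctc
Per3 (chr4:151044786-151044900, minus strand, 2 D-boxes): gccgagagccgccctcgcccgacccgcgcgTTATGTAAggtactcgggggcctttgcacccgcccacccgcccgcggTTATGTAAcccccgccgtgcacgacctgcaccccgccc
Nr1d1 (chr11:98775378-98775435, minus strand, E′-box): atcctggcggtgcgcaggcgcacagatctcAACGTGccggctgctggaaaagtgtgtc
Nr1d2 (chr14:18239148-18239213, minus strand, ROR half-site): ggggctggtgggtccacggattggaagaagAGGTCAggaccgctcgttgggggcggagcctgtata
Arntl (chr7:113207530-113207559, plus strand, ROR half-site after the start): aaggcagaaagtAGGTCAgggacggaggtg
A match is a description of the letters in the window and not a measured binding site.

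Signals are given as log2 of the quantile-normalized signal, and a gene counts as detected on an array when its signal-to-noise ratio was 3 or more. Arntl, Cry1, Nr1d1 and Nr1d2 were detected on all 9 arrays. Clock and Per2 were detected on 7, Npas2 on 6, Per3 on 5, and Cry2 and Per1 on 2 arrays each. Genes detected on at least 3 arrays were tested, which left 8 of the 10 genes. Per2 was detected on 1 array of feed B and Per3 on none, so that both passed this filter through the arrays of feeds K and G. The share of all probes detected was 33.7 to 43.6% on the arrays of feed B, 41.2 to 47.6% on feed K and 46.4 to 48.1% on feed G. This share was lowest on feed B, where Per2 and Nr1d2 were lowest and Arntl highest, and its part in the differences was not tested. The 4 enterocyte markers with a probe, Vil1, Fabp2, Anpep and Apoa4, were detected on all 9 arrays. They do not tell the jejunum from other parts of the small intestine. The ileal markers Fabp6 and Slc10a2, summed, ranged from 7.81 to 17.9 on feed B, from 9.30 to 12.3 on feed K and from 8.52 to 19.5 on feed G. Mice 7 and 10 of feed B and mouse 11 of feed G stood apart with the highest ileal sums, 15.8, 17.9 and 19.5. Per2 was not detected in mice 7 and 10 of feed B, and Arntl was lowest in mouse 11 of feed G. The part of the ileal sums in the clock values was not tested. The ileal sum did not order the feeds, as the values of all 3 feeds overlapped.

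Among the activators, Arntl was highest in the mice on feed B and lowest in those on feed G. Its signal was 9.84, 9.67 and 9.80 in mice 7, 8 and 10 of feed B. Mice 1, 3 and 4 of feed K had 9.44, 8.60 and 8.98, and mice 4, 8 and 11 of feed G had 7.67, 8.63 and 6.67. The 3 mice on feed B lay within a narrow span above all others, whereas feeds K and G overlapped in mice 3 and 8. Feed B averaged 9.77 ± 0.09 (SD, n = 3), feed K 9.01 ± 0.42 and feed G 7.66 ± 0.98, so that the spread differed as well as the level. Compared with feed B, Arntl was 4.34-fold lower in the mice of feed G, a log2 difference of -2.12 (standard error 0.45, 95% confidence interval -3.16 to -1.07). That difference had an unadjusted p of 0.00151 in limma and an adjusted p of 0.417 over all 9652 genes tested. Between feeds G and K the log2 difference was -1.35 (limma, unadjusted p = 0.0171, adjusted p = 0.960), and between feeds K and B it was -0.76 (limma, unadjusted p = 0.130, adjusted p = 0.831). The exact permutation test of the feed over the 280 splits of the 9 mice gave p = 0.00714 for Arntl, the smallest possible p being 0.00357. Mouse 11 of feed G had the lowest Arntl signal, with a signal-to-noise ratio of 3.08, just above the limit of detection. Without this mouse the difference between feeds G and B was -1.61. In bulk tissue, fewer cells that express a gene and less RNA per cell cannot be told apart.

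Clock, the usual partner of Arntl, did not separate the feeds. It was 8.49, 8.80 and 6.89 in mice 7, 8 and 10 of feed B, 6.06, 7.98 and 7.96 in mice 1, 3 and 4 of feed K, and 7.29, 7.61 and 7.28 in mice 4, 8 and 11 of feed G. The values of all 3 feeds overlapped, and mouse 8 of feed B and mouse 1 of feed K, the highest and the lowest, were not detected. The log2 difference between feeds G and B was -0.67, with a 95% confidence interval of -2.11 to 0.77.

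Npas2, which can stand in for Clock, had its highest signals on feed B, most of them on spots not detected. Its signal was 10.39, 10.38 and 10.88 in mice 7, 8 and 10 of feed B, 10.22, 7.92 and 9.16 in mice 1, 3 and 4 of feed K, and 9.51, 10.09 and 10.20 in mice 4, 8 and 11 of feed G. All 3 values of feed B lay above all values of the other feeds, but the spots of mice 7 and 10 were noisy and only mouse 8 counted as detected on feed B. The spot of mouse 10 had a signal of 1815 with an SD of 1164, a signal-to-noise ratio of 1.56, and that of mouse 4 of feed K had a ratio of 1.07. Between feeds K and B the log2 difference was -1.45 (standard error 0.52, limma, unadjusted p = 0.0232, adjusted p = 0.784). It was -0.86 without mouse 3 of feed K, in which Npas2 was lowest. The log2 difference between feeds G and B was -0.62, but -0.045 when each array was scaled to its median and -0.27 without the spots whose signal-to-noise ratio was under 1. The exact permutation test of the feed gave p = 0.0607.

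**Figure D1:**
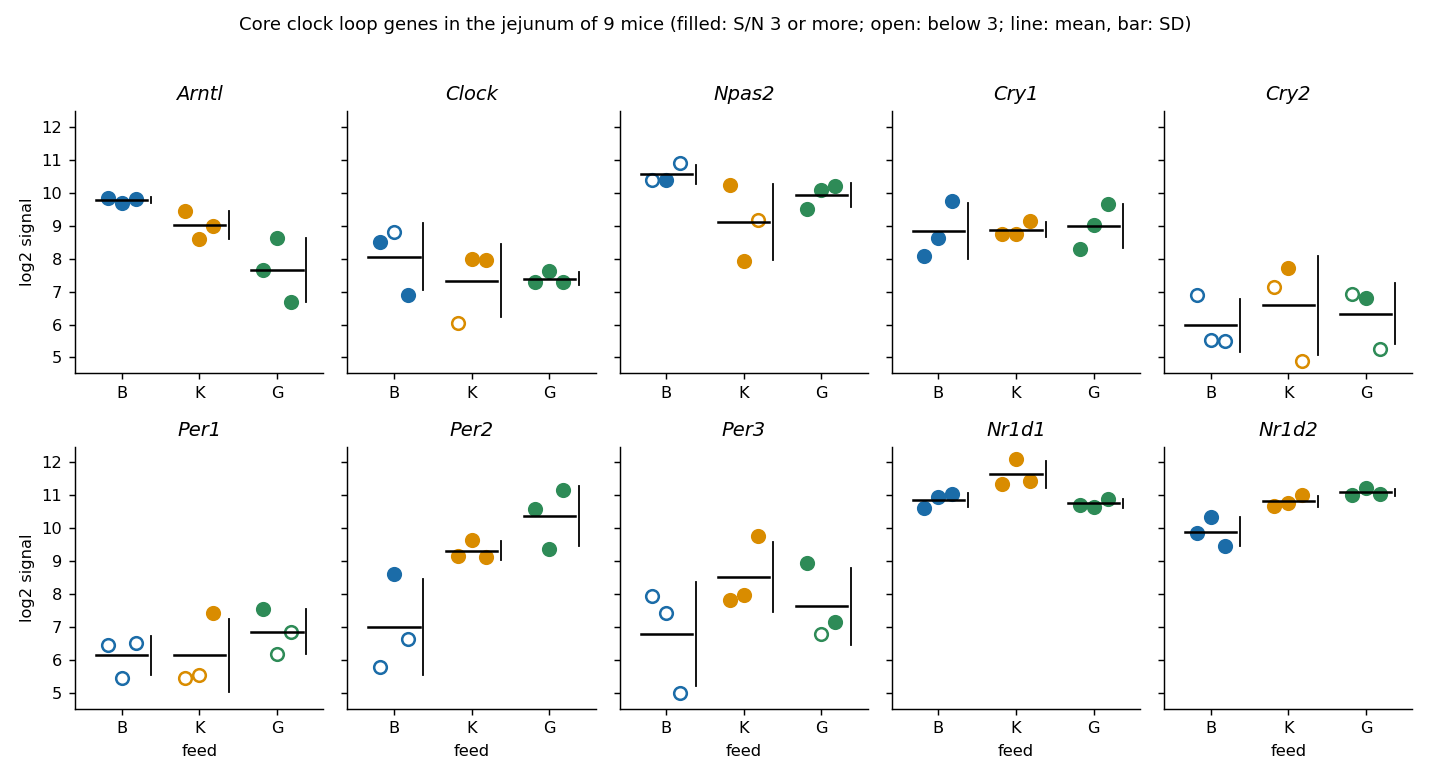
Log2 quantile-normalized signal of the 10 core clock loop genes in each mouse, by feed. Filled points are detected (signal-to-noise ratio at or above 3), open points are not detected, horizontal lines are means and vertical bars are SD (n = 3). Arntl runs from 9.77 on feed B to 7.66 on feed G, and Per2 is detected in mouse 8 alone on feed B and in all mice on feeds K and G.

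Of the period genes, Per2 had its lowest signals on feed B, where 2 of the 3 mice did not detect it. Its signal was 5.79, 8.62 and 6.63 in mice 7, 8 and 10 of feed B. Mice 1, 3 and 4 of feed K had 9.15, 9.65 and 9.14, and mice 4, 8 and 11 of feed G had 10.60, 9.36 and 11.15. All values of feeds K and G lay above those of feed B, with overlap between feeds K and G. Over the 7 mice in which it was detected, Per2 ranged from 8.62 to 11.15. On the scanner's linear scale before normalization, Per2 was 54.4, 266 and 96.1 on feed B and between 359 and 2870 on the other feeds. Mice 7 and 10 of feed B had signal-to-noise ratios of 1.13 and 1.74, so that the mean of feed B rests on values within noise. The fitted log2 difference of Per2 from feed B was 3.35 for feed G (limma, adjusted p = 0.417) and 2.30 for feed K (limma, adjusted p = 0.773). Since Per2 was tested because it was detected on feeds K and G, these differences are given as a description. For feeds G and K the log2 difference was 1.05, with a 95% confidence interval of -0.59 to 2.70. Mouse 8, the only detected mouse of feed B, was itself below all 6 mice of feeds K and G at 8.62.

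Per3, a period gene that is not essential for the loop, was not detected in any mouse on feed B. Its signals were 7.94, 7.43 and 5.0 in mice 7, 8 and 10 of feed B, 7.83, 7.98 and 9.76 in mice 1, 3 and 4 of feed K, and 8.95, 6.79 and 7.15 in mice 4, 8 and 11 of feed G. It was detected in all 3 mice on feed K and in mice 4 and 11 of feed G. For a fold, each array of feed B was set to the signal of its dimmest detected probe, or to its Per3 signal if that was brighter. On that footing the mean on feed K was 2.65-fold higher than on feed B. This fold is not a lower limit, as the Per3 spots of mice 7 and 8 of feed B had SDs of 136 and 163 on the linear scale. The fitted log2 difference between feeds K and B was 1.73 (limma, unadjusted p = 0.0915, adjusted p = 0.804). It was 0.84 without mouse 10 of feed B, whose signal was the lowest, so that the fold rests in part on that mouse. Without spots whose signal-to-noise ratio was under 1 it was 0.93. Since Per3 was tested because it was detected on feeds K and G, these differences are given as a description.

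Per1, which responds quickly to many stimuli, was detected in mouse 4 of feed K at 7.42 and in mouse 4 of feed G at 7.54. In the other 7 mice it was not detected, with signals between 5.45 and 6.86. Cry2 was likewise detected in 2 mice, mouse 3 of feed K at 7.72 and mouse 8 of feed G at 6.79. Its signals in the other mice lay between 4.89 and 7.15, and no mouse on feed B was detected. Neither gene was tested. No fold is given for either, as at most 1 mouse of a feed detected it.

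Cry1, the other cryptochrome and the member with both an E-box and an E′-box in its window, was detected in every mouse and varied as much within feeds as between them. It was 8.09, 8.63 and 9.75 in mice 7, 8 and 10 of feed B, 8.74, 8.74 and 9.14 in mice 1, 3 and 4 of feed K, and 8.30, 9.01 and 9.65 in mice 4, 8 and 11 of feed G. The means were 8.82 ± 0.85 (SD, n = 3), 8.87 ± 0.23 (SD, n = 3) and 8.99 ± 0.68 (SD, n = 3). All feeds overlapped, with mouse 10 of feed B and mouse 11 of feed G the highest. The log2 difference between feeds G and B was 0.17, with a 95% confidence interval of -0.91 to 1.24.

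The nuclear receptors Nr1d1 and Nr1d2, which are close relatives and act on the same elements, differed in their order over the feeds. Nr1d1 was 10.62, 10.94 and 11.03 in mice 7, 8 and 10 of feed B, 11.35, 12.11 and 11.43 in mice 1, 3 and 4 of feed K, and 10.72, 10.65 and 10.89 in mice 4, 8 and 11 of feed G. Feed K lay above both other feeds without overlap, and feeds B and G overlapped. The log2 difference of feed K from feed B was 0.77 (standard error 0.25, limma, unadjusted p = 0.0137, adjusted p = 0.773) and of feed G from feed K -0.88 (limma, unadjusted p = 0.00679, adjusted p = 0.960). The exact permutation test of the feed gave p = 0.0179. Between feeds G and B the difference was -0.11, but 0.44 when each array was scaled to its median. That scaling raised the median gene by 0.53 on feed G relative to feed B, so that Nr1d1 lay below the median gene either way.

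Nr1d2 was 9.86, 10.34 and 9.47 in mice 7, 8 and 10 of feed B. Its signals were 10.67, 10.76 and 11.01 in mice 1, 3 and 4 of feed K and 11.02, 11.22 and 11.04 in mice 4, 8 and 11 of feed G. The feeds stood in the order B, K, G without overlap, although the highest mouse of feed K and the lowest of feed G were nearly equal. For Nr1d2 the log2 difference between feeds G and B was 1.20 (standard error 0.24, 95% confidence interval 0.64 to 1.76, limma, unadjusted p = 0.00105, adjusted p = 0.417). Between feeds K and B it was 0.93 (limma, unadjusted p = 0.00503, adjusted p = 0.753), and feeds G and K differed by 0.28 with a 95% confidence interval of -0.28 to 0.84. In the exact permutation test of the feed the p was 0.00357, the smallest that 280 splits can give.

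**Figure D2:**
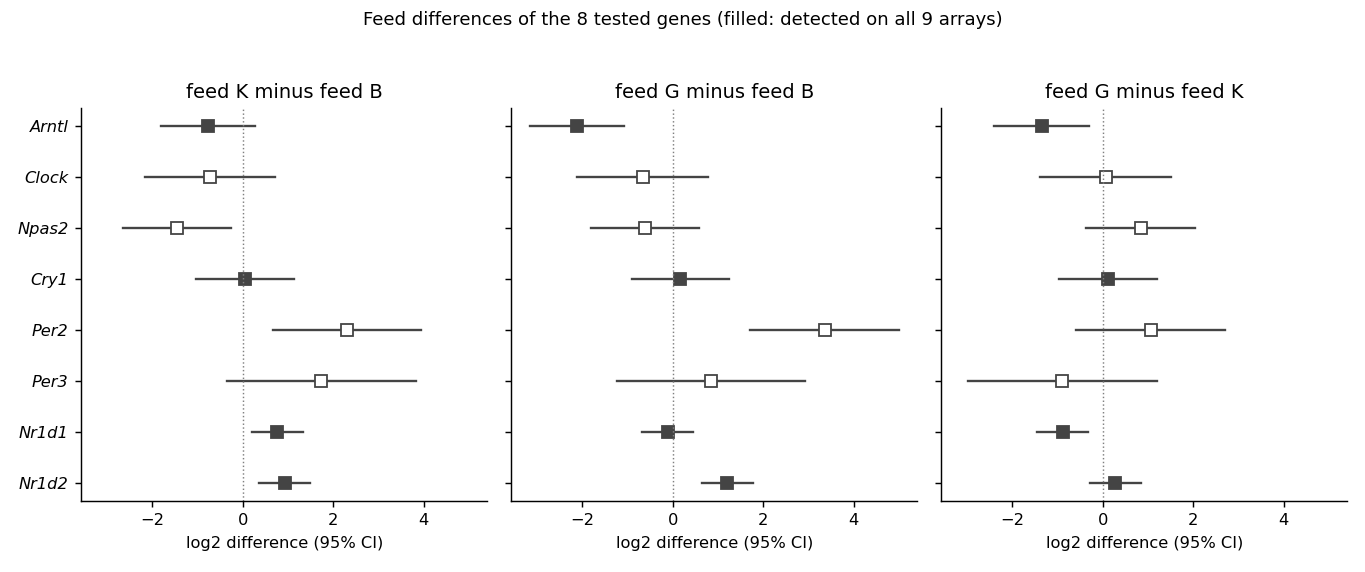
Log2 differences between pairs of feeds for the 8 tested core clock loop genes, with 95% confidence intervals from limma (3 mice per feed). Filled squares are genes detected on all 9 arrays, open ones have undetected spots; the 3 comparisons share mice, and feed G minus feed B shows Arntl at -2.12 and Nr1d2 at 1.20.

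None of the 8 tested members passed an adjusted p of 0.05, and 0% of all 9652 genes did, in limma's F test over the 3 feeds and in each pair of feeds. Counts at an unadjusted p were taken over the 4 members detected on all 9 arrays, Arntl, Cry1, Nr1d1 and Nr1d2, beside the 5887 genes detected so, since a gene that was tested through its high feeds alone had to differ. Of the 4, Arntl, Nr1d1 and Nr1d2 had an unadjusted p below 0.05 in the F test, against 3.67% of these genes. Between feeds K and B these were 2 members, Nr1d1 and Nr1d2, both higher on feed K, against 3.96% of genes in either direction. For feeds G and B they were 2 members (Arntl lower, Nr1d2 higher) against 4.09%, and for feeds G and K 2 members (Arntl and Nr1d1, both lower) against 4.42%. Values of feeds K and B did not overlap for 3 of the 4 (Arntl lower, Nr1d1 and Nr1d2 higher), against 9.75% of genes. Those of feeds G and B did not overlap for 2 of 4 (Arntl lower, Nr1d2 higher), against 11.3%, and those of feeds G and K for 2 of 4 (Nr1d1 lower, Nr1d2 higher), against 15.2%. The comparisons share the mice of each feed, so that these counts are not independent of each other. The members were chosen with earlier results of these data known, so that the counts are a description and no test of the set. The scale moved all genes, since scaling to the median raised the median gene by 0.41 on feed K and 0.53 on feed G relative to feed B, and the series table by 0.21 and 0.30, against 0.05 and 0.06 here. Relative to these shifts Arntl, Npas2 and Nr1d1 stayed below and Nr1d2 above the median gene on feed G.

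Relations between members were taken over the 9 mice, 1 array each. Of the 45 pairs, Arntl and Per2 were the closest to a strict order. From the mouse with the highest to that with the lowest Arntl (mice 7, 10 and 8 of feed B, 1 and 4 of feed K, 8 of feed G, 3 of feed K, and 4 and 11 of feed G), Per2 was 5.79, 6.63, 8.62, 9.15, 9.14, 9.36, 9.65, 10.60 and 11.15. Only mice 1 and 4 of feed K break the order, with nearly equal Per2. Pearson's r was -0.846 (exact permutation p = 0.00568, adjusted over the 45 pairs 0.128). Spearman's rho was -0.983 (exact permutation p = 4.96e-05, adjusted 0.00223), the only pair past 0.05 after adjustment. This test moves mice freely across feeds, and Per2 was not detected in mice 7 and 10 of feed B, where it was lowest. Without the 2 mice farthest from the median of Arntl, mice 4 and 11 of feed G, r was -0.798 (exact permutation p = 0.0284). With the feed means subtracted r was -0.593 (exact permutation within feeds p = 0.00926, adjusted 0.347). On feed G the lowest Per2 was in mouse 8, which had the highest Arntl of that feed. The relation within feeds did not pass the adjustment, and on feed B Arntl varied little (SD 0.09). Over the 7 mice in which both genes were detected, r was -0.980 (exact permutation p = 0.000397) and rho -0.964, a setting added after the values were seen.

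Nr1d2 shared part of this order. Per2 and Nr1d2 had r = 0.872 (exact permutation p = 0.00441, adjusted 0.128) and rho = 0.817 (exact permutation p = 0.0108, adjusted 0.161). Its r passed the adjustment with arrays scaled to the median (0.916, exact permutation, adjusted p = 0.0201) and with spots under a signal-to-noise ratio of 1 left out (0.906, exact permutation, adjusted p = 0.0352), where Arntl and Per2 had adjusted p-values of 0.264 and 0.115. Without mice 7 and 10 of feed B, the farthest from the median of Per2, r was 0.548 (exact permutation p = 0.204), so that the relation rests on those mice. Arntl and Nr1d2 had r = -0.697 (exact permutation p = 0.0357, adjusted 0.401) and rho = -0.850 (exact permutation p = 0.00607, adjusted 0.137), and r was -0.853 without mice 4 and 11 of feed G (exact permutation p = 0.0182). With the feed means subtracted it was 0.066 (exact permutation within feeds p = 0.755), so that the opposite order of Arntl and Nr1d2 was one between feeds and was not seen within them.

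**Figure D3:**
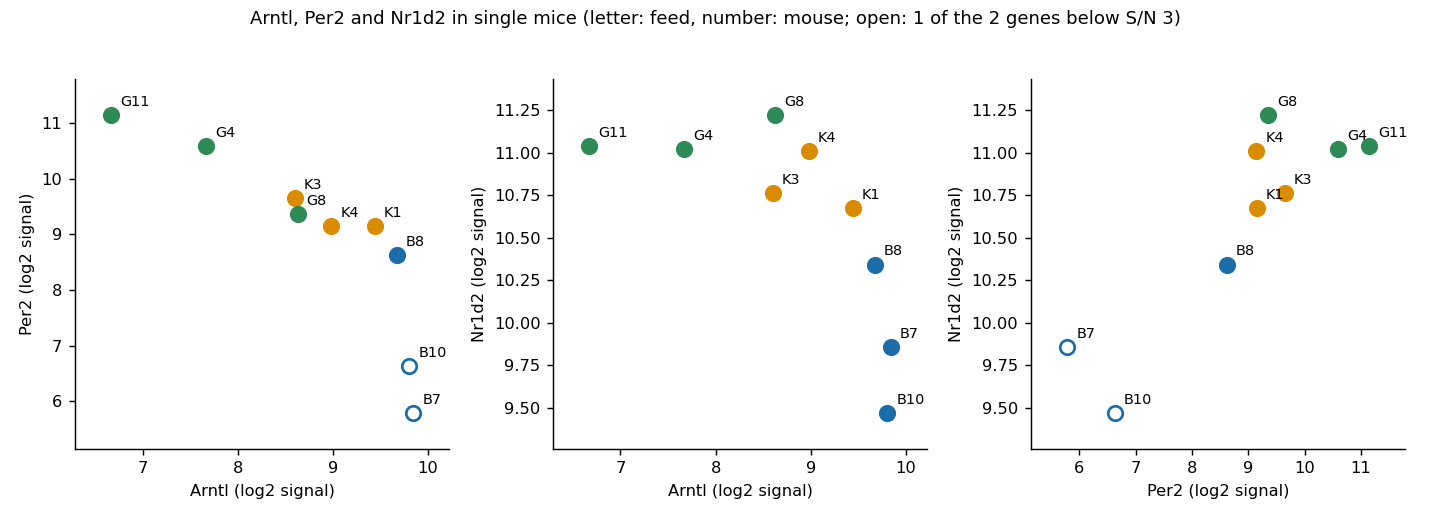
Log2 signals of Arntl, Per2 and Nr1d2 against each other, 1 point per mouse with its feed letter and mouse number (n = 9). Open points have 1 of the 2 genes below a signal-to-noise ratio of 3. The mice run from high Arntl and low Per2 (mouse 7 of feed B) to low Arntl and high Per2 (mouse 11 of feed G).

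No relation was detected between Nr1d1 and its relative Nr1d2, with r = 0.112 (exact permutation p = 0.776) and rho = -0.167. This r depended on the scale. It was 0.559 with arrays scaled to the median (exact permutation p = 0.116) and 0.485 in the series table (exact permutation p = 0.186). Without spots under a signal-to-noise ratio of 1 it was 0.367 (exact permutation p = 0.341). Nor was a relation of Nr1d1 to Arntl detected over all mice, with r = 0.068 (exact permutation p = 0.860). With the feed means subtracted r was -0.546 (exact permutation within feeds p = 0.0231, adjusted 0.347), and on feed K mouse 3 had the highest Nr1d1 and the lowest Arntl. Nr1d1 and Npas2 had r = -0.752 (exact permutation p = 0.0288, adjusted 0.401) and rho = -0.400. Without mice 3 and 4 of feed K r was 0.338 (exact permutation p = 0.454), so that this relation rests on those mice. The activators Arntl and Npas2 had r = 0.283 (exact permutation p = 0.454) and rho = 0.733 (exact permutation p = 0.0311, adjusted 0.350).

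Over the pairs as a whole, r was below 0 in 17 of the 21 pairs of an activator and a repressor, with a median of -0.240. It was below 0 in 5 of the 21 pairs of repressors, with a median of 0.132, and in 1 of the 3 pairs of activators. Subtracting the feed means left 13 of 21 pairs of an activator and a repressor below 0, with a median of -0.102, and 12 of 21 pairs of repressors, with a median of -0.144. Pairs share genes and mice and are not independent. The share of negative r was not taken over pairs of other genes, so that these counts are a description. Cry2 and Per1 enter them with most of their spots not detected. Arntl was the only activator detected on all 9 arrays. Its r to the repressors so detected was -0.248 (Cry1), 0.068 (Nr1d1) and -0.697 (Nr1d2). Cry1 stood outside the order of Arntl and Per2, with r = -0.248 to Arntl (exact permutation p = 0.527) and 0.167 to Per2 (exact permutation p = 0.673). Clock, too, had r between -0.383 and 0.248 with every other member over the 9 mice. With the feed means subtracted its r ran from -0.715 with Npas2 to 0.764 with Nr1d2. The exact permutation p within feeds was 0.0787 and 0.107 for these pairs (adjusted 0.755 for both).

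**Figure D4:**
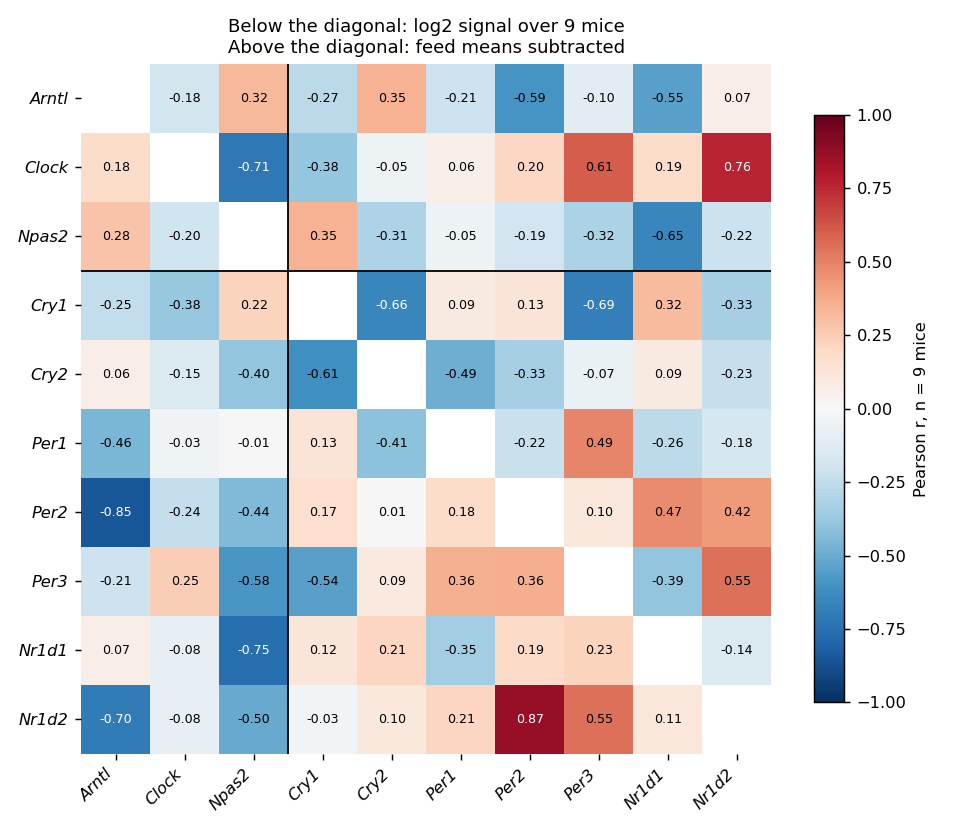
Pearson r between the 10 core clock loop genes over 9 mice. Values below the diagonal use log2 signal and values above it use log2 signal with the feed means subtracted; black lines part the 3 activators from the 7 repressors. Arntl and Per2 have -0.85 below and -0.59 above the diagonal, Arntl and Nr1d2 -0.70 and 0.07.

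The genes whose signal ran most like that of a member were sought among 5792 genes detected on all 9 arrays, by Pearson's r over the 9 mice and as a description. For Nr1d2 the nearest were Tef (r = 0.973), Ciz1 (0.959) and Dbp (0.948). TEF and DBP are factors that activate genes through D-boxes. Tef was 9.74, 10.49 and 8.74 in mice 7, 8 and 10 of feed B, 10.47, 11.03 and 11.57 in mice 1, 3 and 4 of feed K, and 11.93, 11.74 and 11.54 in mice 4, 8 and 11 of feed G. Like Nr1d2 it was lowest in mouse 10 of feed B. For Nr1d1 the nearest were Zswim4 (0.921), Uap1 (0.904) and Asah2 (0.8996), and for Cry1 they were 2010005O13Rik (0.945), 2410004N11Rik (0.938) and Dusp6 (0.932), a phosphatase of MAP kinases. None of these 6 was among the nearest of Nr1d2.

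For Arntl the 10 highest r lay between 0.901 and 0.922 and the 10 lowest between -0.898 and -0.949. Among the highest was Nfil3 (0.905), which encodes the repressor of D-boxes. Nfil3 was 10.12, 9.85 and 10.23 in mice 7, 8 and 10 of feed B and 8.98, 9.02 and 8.77 in mice 4, 8 and 11 of feed G, with the mice of feed K between 9.41 and 9.57. The other 9 were 2810428I15Rik, Ssr2, C230090D14, Nical, Tmc5, Ly64, Ang4, Slc22a5 and 2810451A06Rik. Ang4, an antimicrobial protein of Paneth cells, ranged from 10.03 in mouse 11 of feed G to 15.79 in mouse 10 of feed B. The summed Paneth markers Lyz1 and Ang4 ranged from 16.8 to 18.2 on feed B, from 16.4 to 17.2 on feed K and from 14.5 to 18.0 on feed G, with the lowest sum in mouse 11 of feed G, where Arntl was lowest. Neither of these 2 markers had an unadjusted p below 0.05 in the F test, although Ang4 had one of 0.0312 between feeds G and B (limma), and their part in the Arntl values was not tested. The summed enterocyte markers ranged from 20.6 to 21.2 on feed B, from 21.0 to 21.2 on feed K and from 20.9 to 21.2 on feed G. They were lowest in mice 7 and 10 of feed B, at 20.6 and 20.7, and had r = 0.667 to Nr1d2. To Arntl, r was -0.863 for the pancreas sum, 0.792 for the Paneth sum and 0.615 for the smooth muscle sum. The sums of the other lists had r between -0.467 and 0.224 to Arntl. The part of these sums in the clock values was not tested. Exocrine pancreas markers, of which only Cela1 was tested, summed to 9.37 to 9.69 on feed B, 9.39 to 9.64 on feed K and 9.67 to 10.4 on feed G, and none of the tested markers of any list had an unadjusted F test p below 0.05.

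The lowest r to Arntl were those of Eef2k (-0.949), the kinase of elongation factor 2, and Cipc (-0.935), listed on the array as 2310044G17Rik. CIPC is an inhibitor of the CLOCK and ARNTL pair. It was 9.66, 10.04 and 9.73 in mice 7, 8 and 10 of feed B, 10.19, 10.47 and 10.43 in mice 1, 3 and 4 of feed K, and 10.80, 10.51 and 10.99 in mice 4, 8 and 11 of feed G. Its values lay in the order B, K, G without overlap, and its r was 0.963 to Per2. The other 8 were Sec15, C230093N12Rik, Myo6, Abcb1a, 1810073E21Rik, Myohd1, F2rl1 and 5033413H12Rik. Among the members detected on all 9 arrays Nr1d2 had the lowest r to Arntl, and it ranked 140 from the lowest among the 5792 genes.

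**Figure D5:**
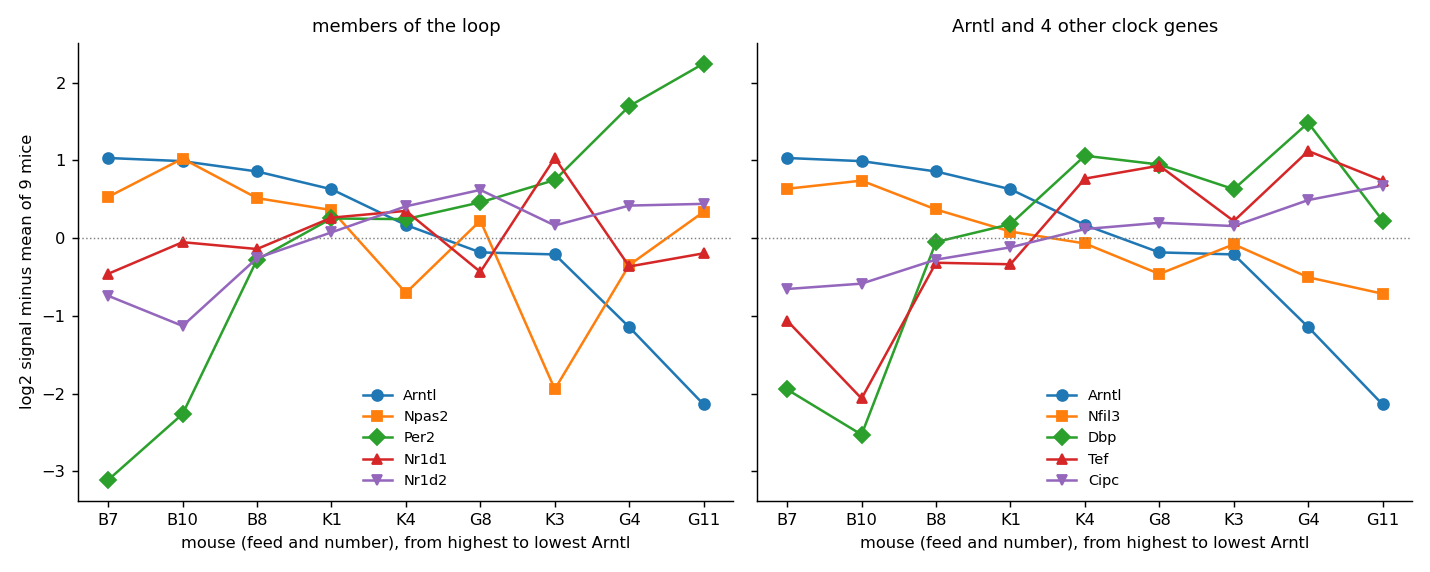
Log2 signal minus the mean of the 9 mice, with mice ordered from highest to lowest Arntl (feed letter and mouse number). The left panel shows 5 members of the loop and the right panel Arntl with 4 other clock genes. Per2 and Cipc lie lowest on the left and highest on the right, Nfil3 the other way, and Nr1d1 is highest in mouse 3 of feed K.

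Other genes of the clock were taken from a list of 37 regulators and outputs, of which 33 had a probe, 28 were tested and 21 were detected on all 9 arrays. None of the 28 passed an adjusted p of 0.05 (limma). Of the 21, 7 had an unadjusted p below 0.05 in the F test, beside 3.67% of all genes detected on all 9 arrays. In either direction the count was 7 between feeds K and B, beside 3.96%, 8 between feeds G and B, beside 4.09%, and 2 between feeds G and K, beside 4.42%. This list, too, was chosen with earlier results of these data known, so that its counts are a description. Among regulators of the loop proteins, Usp2, a deubiquitinase that acts on clock proteins, averaged 10.02 ± 0.46 (SD, n = 3) with feed B, 11.20 ± 0.16 with feed K and 11.37 ± 0.54 with feed G. Ncor1, the corepressor through which the NR1D receptors act, averaged 12.76 ± 0.11 (SD, n = 3), 12.33 ± 0.16 and 12.21 ± 0.08 on the same feeds. Bhlhe40, a repressor that competes for E-boxes, averaged 9.97 ± 0.33 (SD, n = 3), 10.45 ± 0.48 and 11.18 ± 0.64. The kinases of PER proteins, Csnk1d and Csnk1e, had unadjusted F test p-values of 0.456 and 0.507 in limma. Arntl2, the relative of Arntl, was detected on 1 array and was not tested.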

How the data were processed

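Jejunal RNA of 9 OF1 mice (3 per feed) was hybridized to single-colour Applied Biosystems arrays. The authors deposited a scanner table per array with the background-corrected, spatially normalized signal intensity of each spot, its SD, a signal-to-noise ratio score and a flag. They also deposited a series table of assay-normalized intensity, whose divisor is not given in the sources used here. Where a score was below 1, the deposited signal intensity equalled the SD (119010 of 119010 spots). Here spots with a quality code over 5000 were dropped, then quantile normalization by arithmetic mean across the 9 arrays, log2 transformation and averaging of the probes of a gene followed. Genes with a score of at least 3 on at least 3 arrays entered limma 3.58.1 (R 4.3.3; lmFit and eBayes, all 9 arrays, Benjamini-Hochberg at 0.05). Each member had 1 probe, and 9 of the 10 gave a RefSeq accession of the same gene in GRCm38.p6. Correlations used all 362880 pairings, or 216 arrangements within feeds, in Python 3.11.15 with scipy 1.17.1, numpy 2.4.6 and pandas 2.3.3. The fits were tested on simulated data. The number of arrays limits the precision. Sums of markers are log2 of summed normalized signals. The members and lists were chosen with earlier results of these data known. Named genes were the members, the 3 genes most like each member detected on all 9 arrays, the 10 genes highest and lowest in r to Arntl, and listed clock genes; Arntl2 was named after its values were seen. Other settings tried were scaling to the median, the series table, a gene's brightest probe, failed spots kept, spots with a score below 1 left out, other filters, unmoderated and trend tests, and leaving out each mouse.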

Additional observations from a re-analysis of the deposited data

How the results depend on the processing

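The log2 differences of the 8 tested members kept their direction, with no adjusted limma p below 0.05, in 200 of 204 cases where all mice were kept and in all but 9 of those with 1 mouse left out. For Clock, feed G minus feed K was -0.07 in the series table and -0.58 to 0.38 when a mouse was left out. For Nr1d1, feed G minus feed B was 0.44 with median scaling, 0.23 in the series table and 0.20 without spots of a score below 1. Leaving out a mouse gave Cry1 -0.32 to 0.52 (K minus B), -0.20 to 0.63 (G minus B) and -0.21 to 0.46 (G minus K), and Per3 -0.055 to 1.43 (G minus B). Arntl, feed G minus feed B, lay between -2.56 and -1.61 and Per2 between 2.77 and 4.27, each with an adjusted p of at least 0.175 in every setting. Of the 4 members detected on all 9 arrays, those with an unadjusted p below 0.05 in the F test were 2 in the series table, where Nr1d1 had 0.0883, and 3 in every other setting. For feeds G and K they were 1, Arntl, with median scaling and in the series table, where Nr1d1 had unadjusted p-values of 0.0887 and 0.0999, and 1 to 2 with a mouse left out, the 1 being Nr1d1 without mouse 1 of feed K. For feeds K and B they were 3, with Arntl, without mouse 8 or mouse 11 of feed G. Npas2, outside these 4, had 0.0887 for feeds K and B with median scaling and 0.0511 in the series table. Over all genes, those past an adjusted p of 0.05 in the F test, in feeds G and B and in feeds G and K were 3, 3 and 3 without spots of a score below 1 and 1, 1 and 1 with the unmoderated test. They were 1 in the F test and 1 for feeds G and B among genes detected on all arrays. With a mouse left out these counts ranged from 0 to 3 (F test), 0 to 10 (feeds K and B) and 0 to 3 (feeds G and B), the highest without mouse 10 of feed B. Pairs past an adjusted p were 1 with median scaling and 1 without spots of a score below 1, in both Per2 and Nr1d2, and 1 with Spearman's rho, Arntl and Per2. Arntl and Nr1d1 had r of -0.020 with median scaling, -0.017 in the series table, -0.042 without spots of a score below 1, -0.1 as rho, -0.546 within feeds, -0.486 without 2 mice and -0.073 to 0.228 with a mouse left out. Arntl and Nr1d2 turned to 0.066 within feeds, and Npas2 and Nr1d1 to 0.338 without 2 mice. The cause of these changes was not tested. No paired analysis was possible, as no pairing of mice across feeds is named in the sources used here. No batch term could be fitted, as no batch is named in the sources used here and each array had its own barcode.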
